A study of Mus musculus with 24 samples.

Results

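Cytochrome P450 family 2 was measured on these arrays by 43 probe sets (groups of short probes that read a transcript) whose annotated gene symbol, or each symbol of a list joined by semicolons, reads Cyp2 followed by a letter and a number. They were 43 of the 45101 probe sets on the Affymetrix Mouse Genome array and covered 37 of 19324 annotated genes, 35 of them with a probe set of their own and a pair, Cyp2a5 and Cyp2a4, read together by 1 shared probe set. All 43 symbols were still in use in the RefSeq gene table. Liver and duodenum of male mice aged 7 weeks were profiled on 24 arrays, 3 mice in each of 4 groups per tissue: wild-type (WT) C57BL/6 (B6), Hfe-/- B6, WT DBA/2 (D2) and Hfe-/- D2. Every mouse had been fasted and kept on a standard diet that contained iron, and no other allele or agent is given for any group. The Hfe-/- mice carried a disruption of Hfe in all cells and were bred in the laboratory's animal facility while the WT mice were purchased, so that genotype and origin cannot be told apart. Hfe, the gene of the membrane protein that is mutated in hereditary hemochromatosis, is called KO when disrupted below, and the values are MAS5 signals, an intensity scale on which each array was set to a trimmed mean of 100.

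P450 enzymes are heme-containing mono-oxygenases of the endoplasmic reticulum that insert an oxygen atom into drugs, steroids, bile acids, retinoids and fatty acids, with electrons from P450 oxidoreductase and cytochrome b5. Family members arose by repeated gene duplication and lie in clusters of close copies, and many are made mainly by hepatocytes. The constitutive androstane receptor (CAR, encoded by Nr1i3) and the pregnane X receptor (PXR, encoded by Nr1i2) switch on members of the Cyp2b and Cyp2c subfamilies in liver when drugs, bile acids or steroids are present, and Cyp2b10 is the classic CAR target in the mouse.

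In the GRCm38.p6 assembly, 12 of the 37 genes lie on chromosome 7 (Cyp2a, Cyp2b, Cyp2e, Cyp2f, Cyp2g, Cyp2r and Cyp2s), 11 on chromosome 19 (Cyp2c), 8 on chromosome 15 (Cyp2d), 5 on chromosome 4 (Cyp2j) and 1 on chromosome 3 (Cyp2u1). The RefSeq promoter table (GRCm38.p6, 250 bases before to 50 bases after a transcript start) held 29 of the 37, of which 27 had a single start. The windows of Cyp2b10, Cyp2b9, Cyp2c38, Cyp2a5 and Cyp2c70 are printed because the signals described below changed in liver of Hfe-/- D2 mice, with Cyp2c70 taken from the members that rose and the others from those that fell. Capitals mark matches, on either strand, to TATAAA (the TATA box) and to AGGTCA or AGTTCA (half-sites of nuclear receptors such as CAR and PXR). They also mark GTTAAT (a half-site of the hepatocyte factor HNF1) and TTANGTAA, with any base at N. TTANGTAA is a loose form of the motif of the clock-driven factors Dbp, Tef and Hlf. No motif overlapped another in these windows. The windows are chr7:25897408-25897707 (+ strand) for Cyp2b10, chr7:26173159-26173458 (+) for Cyp2b9, chr19:39463026-39463325 (-) for Cyp2c38, chr7:26835089-26835388 (+) for Cyp2a5 and chr19:40187237-40187536 (-) for Cyp2c70, each read 5′ to 3′ on the strand of its gene.
Cyp2b10: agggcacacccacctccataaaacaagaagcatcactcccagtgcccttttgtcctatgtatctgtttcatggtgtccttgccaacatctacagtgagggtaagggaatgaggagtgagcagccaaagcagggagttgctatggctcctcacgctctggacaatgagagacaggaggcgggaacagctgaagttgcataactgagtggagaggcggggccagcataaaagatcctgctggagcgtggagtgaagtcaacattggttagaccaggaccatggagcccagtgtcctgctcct
Cyp2b9: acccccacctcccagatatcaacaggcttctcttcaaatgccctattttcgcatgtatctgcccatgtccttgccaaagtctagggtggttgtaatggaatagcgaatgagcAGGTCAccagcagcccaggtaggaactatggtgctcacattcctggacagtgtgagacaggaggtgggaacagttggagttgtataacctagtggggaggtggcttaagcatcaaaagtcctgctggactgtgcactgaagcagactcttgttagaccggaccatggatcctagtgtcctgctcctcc
Cyp2c38: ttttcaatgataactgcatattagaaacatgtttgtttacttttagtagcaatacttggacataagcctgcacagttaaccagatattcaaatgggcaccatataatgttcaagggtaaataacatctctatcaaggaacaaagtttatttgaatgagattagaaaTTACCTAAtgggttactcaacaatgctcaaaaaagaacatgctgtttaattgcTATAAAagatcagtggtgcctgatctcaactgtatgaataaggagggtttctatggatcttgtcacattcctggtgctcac
Cyp2a5: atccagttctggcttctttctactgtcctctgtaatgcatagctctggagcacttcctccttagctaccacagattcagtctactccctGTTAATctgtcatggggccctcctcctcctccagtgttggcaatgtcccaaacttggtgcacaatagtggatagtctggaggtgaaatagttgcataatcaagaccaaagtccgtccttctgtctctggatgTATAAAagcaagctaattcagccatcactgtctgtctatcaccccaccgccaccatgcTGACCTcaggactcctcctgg
Cyp2c70: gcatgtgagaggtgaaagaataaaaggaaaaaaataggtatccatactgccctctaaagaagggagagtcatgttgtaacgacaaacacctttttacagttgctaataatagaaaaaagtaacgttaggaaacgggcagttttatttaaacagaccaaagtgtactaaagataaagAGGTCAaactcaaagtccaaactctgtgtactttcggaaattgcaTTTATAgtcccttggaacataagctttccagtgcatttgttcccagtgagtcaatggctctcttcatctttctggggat

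Of the 27 member promoters, 14 (51.9%) held TATAAA, against 13.6% of all 32851 promoters in the table, and 10 (37%) held AGGTCA, against 16.3%. The members counted have a single start each, whereas every start of a gene enters the background, and close copies count separately. AGTTCA was found in 1 (3.7%, against 14%), GTTAAT in 4 (14.8%, against 7.1%) and TTANGTAA in 1, the window of Cyp2c38 (3.7%, against 2.32%). Binding of Dbp, Tef or Hlf at that loose match was not tested. None of these motifs occurred in the window of Cyp2b10, whereas AGGTCA began 138 bases before the start of Cyp2b9 and 74 bases before that of Cyp2c70. Sequence more than 250 bases before a start was not searched, so receptor sites further away are not covered. After alignment, the Cyp2b9 and Cyp2b10 windows were identical at 229 of 307 positions (74.6%), those of Cyp2a4 and Cyp2a5 at 294 of 299 (98.3%) and those of Cyp2c37 and Cyp2c50 at 264 of 299 (88.3%). Probe sets of such close copies may take up transcript of more than 1 gene, and the names of 8 of the 43 end in a suffix by which the manufacturer marks probes shared between transcripts. Cyp2c39 has 2 starts in the table, and its RefSeq record (chr19:39347346-39569568) spans that of Cyp2c38 (chr19:39389556-39463103), so its promoter is not shown.

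Liver and duodenum arrays carried their tissues' markers: all 11 measured hepatocyte markers were higher in WT liver of both strains, with a summed signal of 95852 to 146995 in liver against 5315 to 7935 in duodenum. Hfe was lower in every KO group, with mean signals of 91.4 ± 6.59 (SD, n = 3) against 683 ± 8.56 in B6 liver and 78.7 ± 7.18 against 462 ± 45.8 in D2 liver. The arrays were hybridized in runs, recognised here as groups of arrays started within 15 minutes of each other. In liver, all 3 D2 KO arrays shared a run with D2 WT 3 alone, while B6 KO 1 and D2 WT 1 shared a run with the 3 B6 WT arrays, so the run moved in part with genotype and strain. In duodenum, pancreatic acinar transcripts (9 markers) summed to 12319 to 84999 on 10 arrays and to 2170 and 2802 on D2 KO 2 and D2 KO 3.

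Most of the family was far more abundant in liver than in duodenum, and a small set showed the opposite order. Of the 43 probe sets, 38 reached a signal of 20 on at least 3 arrays of liver or of duodenum and were tested, together with 28061 probe sets in all, by limma with Benjamini-Hochberg adjustment. The other 5 (Cyp2b13, Cyp2b19, Cyp2d12, Cyp2j11 and Cyp2j13) stayed below that level. In WT B6 mice 31 of the 38 differed between the tissues at an adjusted p of at most 0.01, 24 of them higher in liver and 7 higher in duodenum. That is 81.6%, where 43.3% of all tested probe sets did (18% higher in liver and 25.3% in duodenum), and the median log2 difference was 2.8 against -0.21. In WT D2 mice 34 differed, 27 and 7 in the respective directions (89.5% against a background of 42.5%, or 17.5% and 25% by direction, median 3.68 against -0.2). Liver and duodenum of B6 were hybridized in separate runs, as were those of D2, so tissue and run were linked here.

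Cyp2e1, which oxidises ethanol and acetone, had the highest liver signal of the family, with a mean over the 6 WT livers of 12160, a level above 99.9% of all probe sets in that tissue. Its lowest and highest signals over the 12 livers were 9570 (B6 KO 2) and 14600 (B6 KO 3), and over the 12 duodena 11.7 and 56.5. Cyp2f2, known for oxidising naphthalene in the mouse, followed with a WT mean of 9619 in liver and signals of 0.447 to 15.4 in duodenum. The next were 3 members of the Cyp2d subfamily, Cyp2d9 (8994), a steroid hydroxylase higher in male mice, Cyp2d26 (7479) and Cyp2d10 (7381). No signal of these 3 in liver was below 6200. Of 43 probe sets, 31 reached 100 in at least 3 liver arrays and 14 did so in duodenum. Signals of different probe sets were not corrected for probe affinity, so these ranks order brightness and not molecules.

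Duodenum was led by Cyp2c65, a fatty acid oxygenase of the gut, at 4910, 5050 and 5320 in B6 WT and 5390, 6140 and 6110 in D2 WT, against 0.327 to 11.8 on every liver array. Its log2 difference, liver minus duodenum, was -11.69 ± 0.9 (SE, adjusted p = 1.29e-07) in B6 and -11.22 ± 0.9 in D2. The size of that difference rests on liver signals close to 0. Cyp2b10 came next: its 3 probe sets averaged 3169 to 4224 in WT duodenum and 202 to 287 in WT liver, and all 3 were higher in duodenum in both strains (log2 difference -5.36 to -3.33). Cyp2c55, a Cyp2c enzyme that hydroxylates arachidonic acid, had a mean of 2356 in B6 WT duodenum against 33 in liver (-6.16 ± 0.19) and of 1997 against 96.8 in D2 (-4.33 ± 0.19). Cyp2s1, an epithelial member, was at 452 to 609 in WT duodenum and 12 to 21.7 in WT liver. Cyp2j6 was higher in duodenum with 1 of its 2 probe sets (means 361 against 172 in B6, log2 difference -1.06, adjusted p = 0.00295).

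Other members were high in both tissues. Cyp2d26 had WT means of 7479 in liver and 2561 in duodenum, Cyp2c68 of 4267 and 988, and Cyp2c29 of 6425 and 1997. For Cyp2c29 the tissue difference was 0.6 ± 0.13 on the log2 scale in B6 (4450 against 2930) and 3.01 ± 0.13 in D2 (8400 against 1065). Cyp2d34 and Cyp2d40, with WT means of 10.5 to 29.3 in liver, did not differ between tissues at the threshold in either strain.

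**Figure D1:**
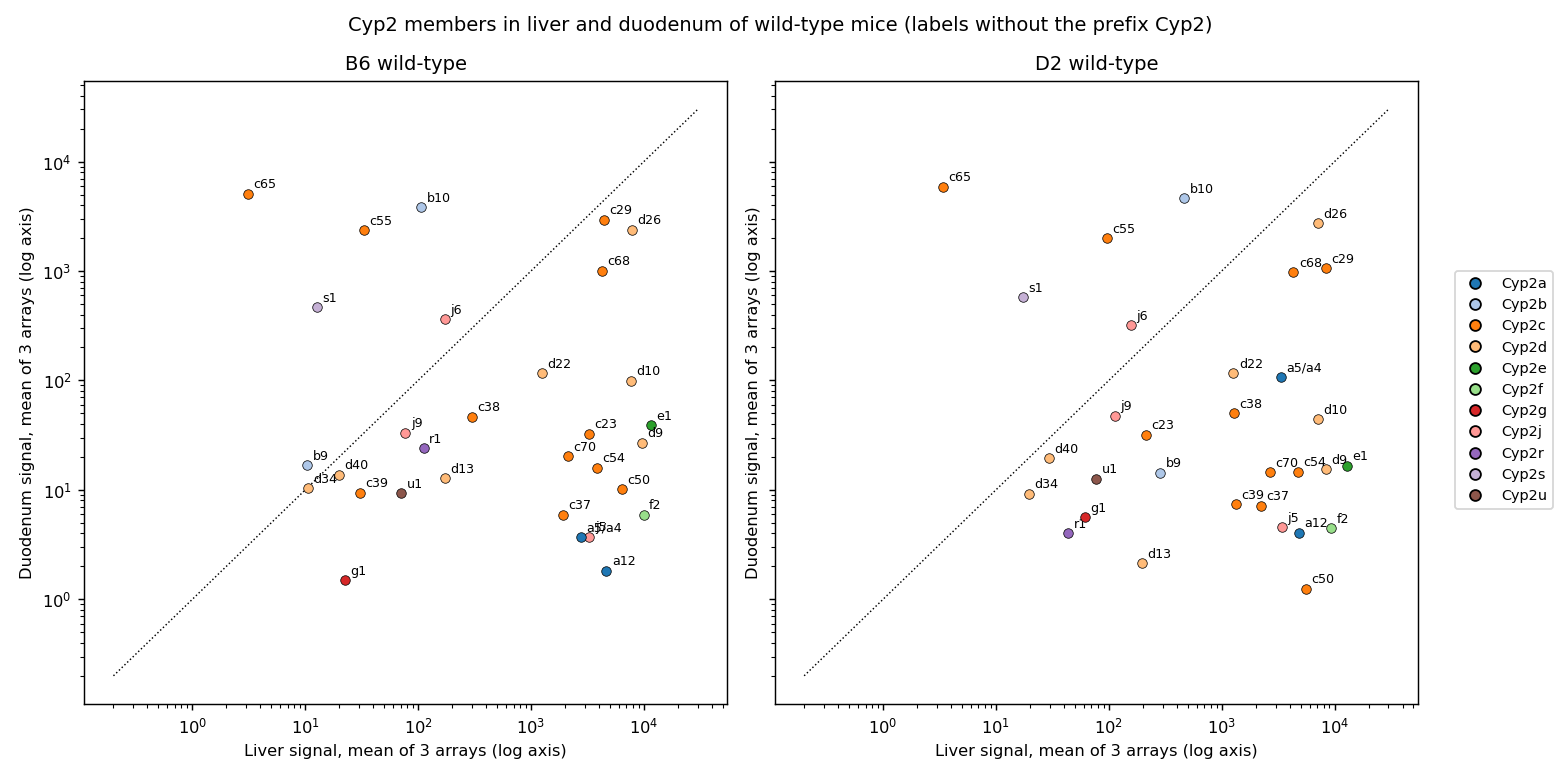
Mean MAS5 signal of each tested Cyp2 gene in WT liver (horizontal, log axis) against WT duodenum (vertical, log axis), 3 arrays a group, for B6 (left) and D2 (right); colours are subfamilies and the dotted line marks equal signal. Cyp2c65, Cyp2b10, Cyp2c55, Cyp2s1 and Cyp2j6 lie above the line in both strains, and Cyp2e1, at 11517 and 12804 in liver, lies at the far right.

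Hfe disruption in the D2 strain was accompanied by large falls of Cyp2b and several Cyp2c members in liver and by smaller rises of a different set of Cyp2c, Cyp2j, Cyp2r and Cyp2u members. At an adjusted p of at most 0.1, 16 of the 38 tested probe sets changed, 8 lower (8 genes or gene pairs) and 8 higher (6 genes). This is 42.1%, against 2.75% of all 28061 tested probe sets (1.35% higher and 1.4% lower). The median log2 difference over the 38 was 0.05, since the rises and falls balanced, against 0.02 over all probe sets. By subfamily, 2 of 4 Cyp2b, 4 of 11 Cyp2c, 1 of 2 Cyp2a and the single Cyp2g probe set fell, while 2 Cyp2c, 3 of 5 Cyp2j, both Cyp2u and the single Cyp2r probe set rose. All 9 Cyp2d probe sets, Cyp2e1, Cyp2f2, Cyp2s1 and Cyp2a12 stayed short of the threshold, with Cyp2e1 at 13400, 12700 and 12300 in D2 WT liver and 12500, 14400 and 13100 in D2 KO liver. In a bulk tissue, fewer cells of a type and less RNA per cell cannot be told apart. None of the 11 hepatocyte markers changed with the KO in D2 liver (median log2 difference 0.07). Of 9 acinar markers 1 rose there, the elastase gene Cela1 (399 to 417 in WT, 610 to 1178 in KO, 1.21, adjusted p = 0.00983), while the other 8 were at most 34.4 in D2 liver. Of 7 listed enterocyte markers 1 fell, the apolipoprotein gene Apoa4 (-0.83, adjusted p = 0.0549), which is bright in liver too. Their summed signal was 4727 to 6145 in WT and 3274 to 4610 in KO, most of it from Apoa4 and Fabp2. Vil1, Lct, Alpi and Cdh17 were at most 23.4 in D2 liver. The part of acinar or enterocyte RNA in the Cyp2 differences was not tested.

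Cyp2b9, a Cyp2b enzyme that is higher in female mouse liver, had the largest fall. Its signals were 395, 382 and 76.5 in D2 WT livers 1 to 3 and 8.29, 0.63 and 3.83 in the D2 KO livers, so every KO value lay below every WT value. The log2 difference was -6.38 ± 1.06 (SE, n = 3 a group, adjusted p = 0.0093). Because the KO signals lie at the array's background, the size depends on how low values are treated, and with 16 added to each signal it was -3.63 ± 0.43 (adjusted p = 0.000416).

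Cyp2b10 fell as well. The probe set that passed had signals of 486, 500 and 184 in D2 WT liver and 38.7, 22.2 and 2.7 in D2 KO liver (log2 difference -4.74 ± 1.09, adjusted p = 0.0462). With 16 added to each signal it was -3.46 ± 0.79 (adjusted p = 0.0367). The other 2 probe sets of the gene did not overlap between the groups either, but missed the threshold. One gave 401, 457 and 105 against 44.3, 5.39 and 35.1 (-3.72, adjusted p = 0.103), and the other 595, 578 and 229 against 71.1, 41.6 and 29.8 (-3.27, adjusted p = 0.119). As with Cyp2b9, D2 WT 3 was the lowest of the WT livers on all 3 probe sets.

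Cyp2c39, a hydroxylase of retinoic acid in the mouse, went from 1550, 1450 and 1030 in D2 WT liver to 430, 68.7 and 65.4 in D2 KO liver (-3.41 ± 0.51, adjusted p = 0.00433). Its neighbour Cyp2c38, which epoxidises arachidonic acid, went from 1530, 1330 and 988 to 630, 104 and 125 (-2.65 ± 0.47, adjusted p = 0.0131). On both, D2 KO 1 kept an intermediate signal and the other KO livers were far lower. Without D2 KO 1 the log2 differences were -4.31 and -3.47.

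The probe set shared by Cyp2a5, the coumarin hydroxylase of mouse liver, and Cyp2a4, a steroid hydroxylase, gave 3330, 3410 and 3360 in D2 WT liver and 2260, 629 and 1040 in D2 KO liver. Its log2 difference was -1.56 ± 0.32 (adjusted p = 0.0258), and D2 KO 1 again lay between the WT livers and the remaining KO livers. The signals of the 2 genes cannot be separated on this probe set.

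Smaller falls were seen for Cyp2c37 and Cyp2c54, close copies in the same cluster that act on fatty acids. Cyp2c37 was at 2460, 2500 and 1660 in D2 WT and at 1240, 1060 and 1100 in D2 KO liver (-0.94 ± 0.16, adjusted p = 0.0119). Cyp2c54 was at 5330, 4780 and 4170 in D2 WT and at 2990, 2570 and 2460 in D2 KO (-0.83 ± 0.18, adjusted p = 0.0327). Cyp2c50, whose promoter is close to that of Cyp2c37, was at 4870 to 6100 in WT and 3830 to 4400 in KO, a difference of -0.43 that missed the threshold (adjusted p = 0.259). Cyp2g1, an olfactory member that is dim in liver, fell from 46.2 to 72.8 in D2 WT to 19.8 to 28.2 in D2 KO (-1.35, adjusted p = 0.0466).

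Among the rises, that of Cyp2c70, the enzyme that makes muricholic acids from primary bile acids in mice, was the largest in signal units. It gave 2690, 2380 and 2950 in D2 WT liver and 4240, 8550 and 8710 in D2 KO liver (1.36 ± 0.29, adjusted p = 0.0342), and every KO liver exceeded every WT liver. Cyp2c23, an arachidonic acid epoxygenase also known as Cyp2c44, rose from 204, 192 and 239 to 360, 568 and 467 (1.12 ± 0.14, adjusted p = 0.00124), the smallest adjusted p of the family in this comparison. Cyp2u1, which hydroxylates long-chain fatty acids, rose on both of its probe sets. The brighter one was at 86, 76.4 and 69.3 in D2 WT and at 109, 176 and 198 in D2 KO (1.02 ± 0.21, adjusted p = 0.0256), and the dimmer one had means of 23.3 and 72.3 (1.62, adjusted p = 0.038).

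Cyp2j6, a fatty acid epoxygenase of the Cyp2j cluster, also rose on both probe sets, from means of 156 to 261 (0.75 ± 0.17, adjusted p = 0.0398) and with a difference of 0.5 on the other (adjusted p = 0.0946). Cyp2j5, an arachidonic acid epoxygenase of liver and kidney, passed on 1 of its 2 probe sets (means 1209 and 1703, difference 0.5, adjusted p = 0.0286), and on the brighter one the difference was 0.16 (adjusted p = 0.503). Cyp2r1, a vitamin D hydroxylase, was at 33.8 to 50.7 in D2 WT and 53.4 to 105 in D2 KO (0.81, adjusted p = 0.0929). Cyp2c55 had signals of 94.5, 107 and 89.4 in D2 WT and 125, 284 and 230 in D2 KO, a difference of 1.06 ± 0.31 that did not pass (adjusted p = 0.118).

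**Figure D2:**
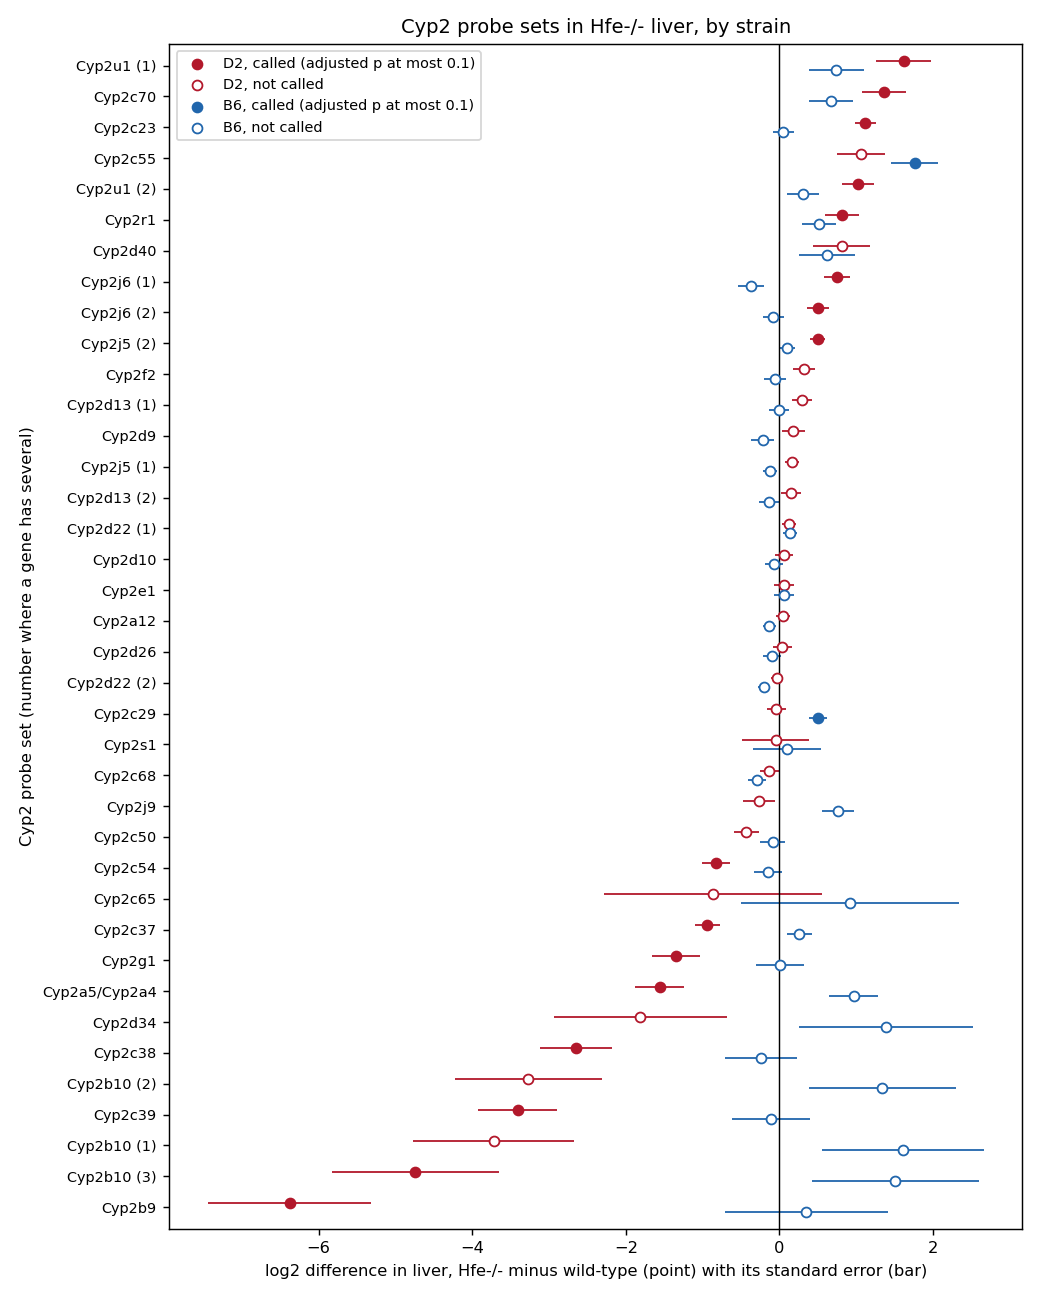
Log2 difference in liver, KO minus WT (horizontal axis), of each of the 38 tested Cyp2 probe sets, with its standard error as a bar, in D2 (red) and B6 (blue) mice; filled points passed an adjusted p of at most 0.1. The 16 filled red points run from -6.38 (Cyp2b9) to 1.62 (Cyp2u1), and the 2 filled blue points are Cyp2c55 (1.76) and Cyp2c29 (0.5).

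**Figure D3:**
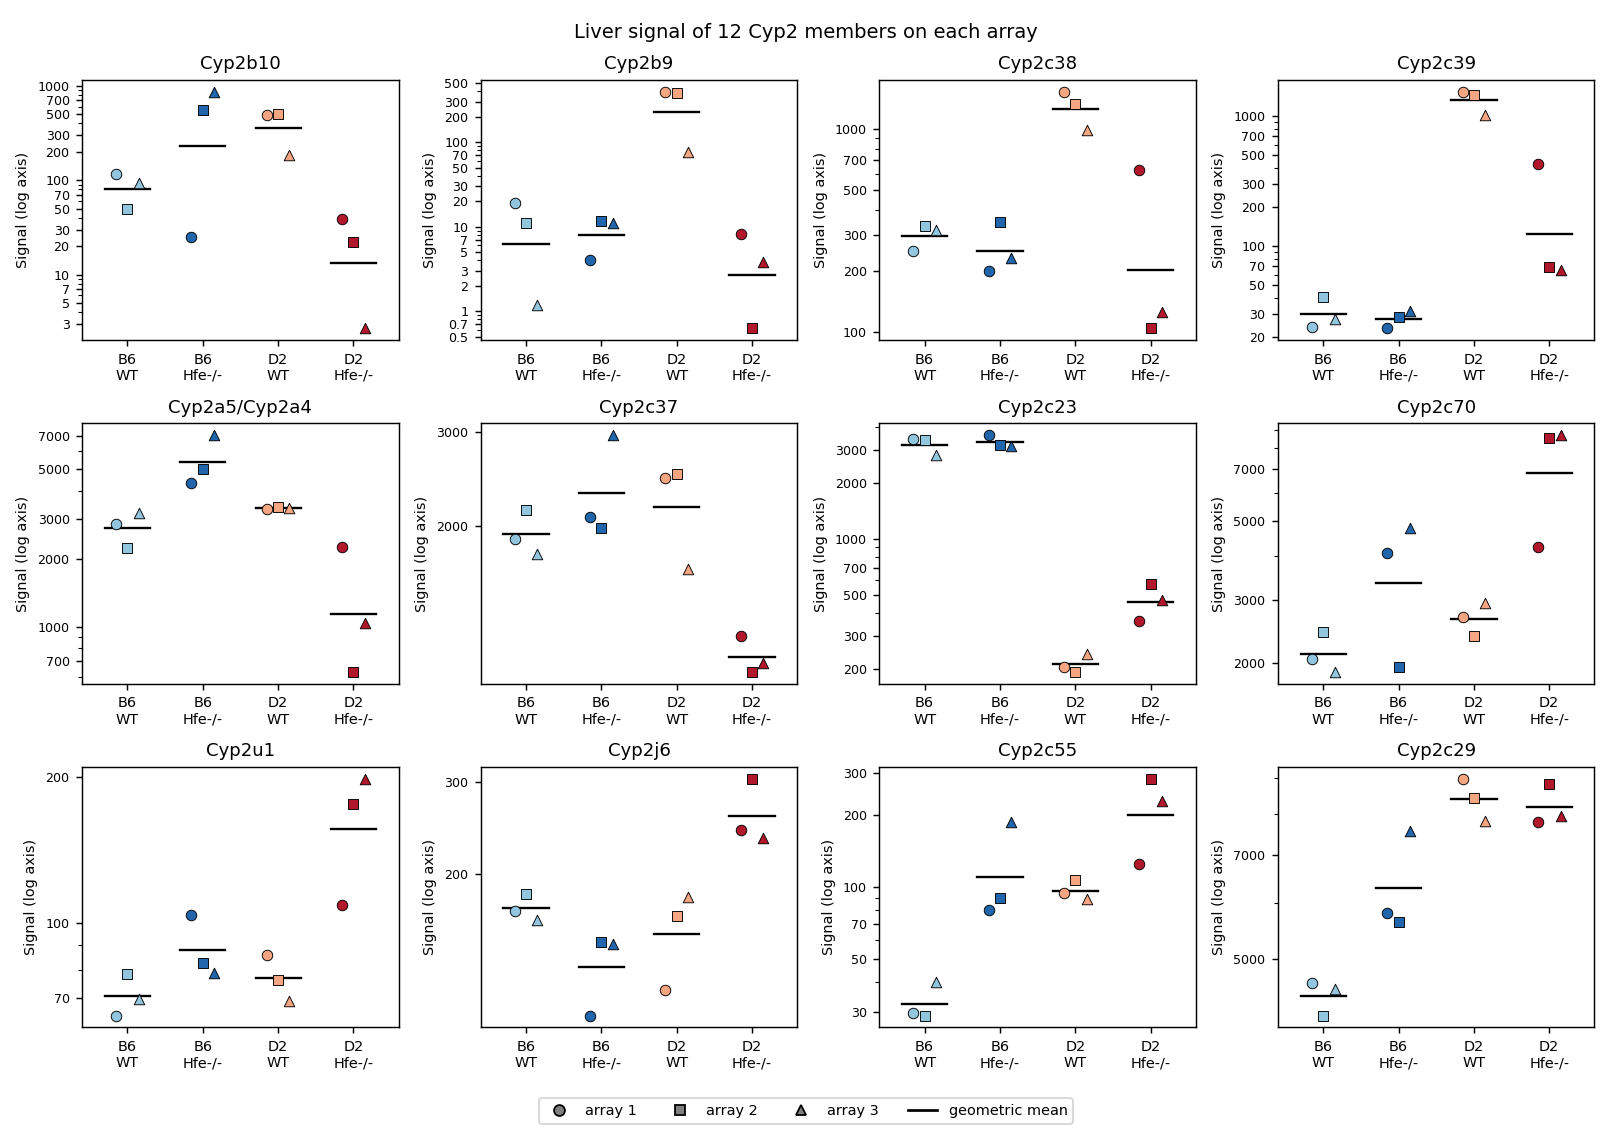
MAS5 signal (log axis, a range of its own in each panel) of 12 Cyp2 members on every liver array; symbols give the array number in its group and horizontal lines the geometric mean of 3 arrays. Cyp2b10, Cyp2b9, Cyp2c38, Cyp2c39, Cyp2a5/Cyp2a4 and Cyp2c37 are lower in all D2 KO livers than in any D2 WT liver, with D2 KO 1, at 630 on Cyp2c38 and 430 on Cyp2c39, between the WT and the other KO livers.

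These D2 liver calls depended on the model of the spread. Within the shared run, where the 3 KO livers stood against D2 WT 3 alone, all 16 changed in the same direction as over all livers (for example Cyp2b9 -4.82, Cyp2c39 -3.05, Cyp2c38 -2.29, Cyp2c23 0.94 and Cyp2c70 1.21). No KO liver overlapped a WT liver on any of the 16, so this direction could not have come out otherwise and does not test the run. With the run as a block none of the 38 passed, and without the mean-variance trend 2 did. Leaving out D2 WT 1 lowered the number called to 7, D2 WT 2 to 10, and D2 KO 2 or D2 KO 3 to 6. Cyp2b9, Cyp2c23, Cyp2c37, Cyp2c38 and Cyp2c39 passed with any single liver array left out.

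In B6 liver 2 of the 38 probe sets changed with the KO, both higher (5.26%, against 1.02% of all probe sets, 0.542% higher). Cyp2c55 had signals of 29.7, 29 and 40.2 in B6 WT liver and 80.4, 90.1 and 187 in B6 KO liver, a log2 difference of 1.76 ± 0.31 (adjusted p = 0.0228). Cyp2c29, an arachidonic acid epoxygenase that CAR induces, was at 4630, 4170 and 4550 in WT and 5820, 5650 and 7570 in KO (0.5 ± 0.12, adjusted p = 0.08). All KO livers exceeded all WT livers for both genes. Of 7 listed enterocyte markers 1 fell in B6 KO liver, Apoa4 (4140 to 5630 in WT, 1197 to 1983 in KO, -1.69, adjusted p = 0.000949). Their summed signal was 6028 to 7824 in WT and 2493 to 3589 in KO, most of it from Apoa4 and Fabp2. Apoa4 is no clear enterocyte marker here, since WT B6 liver and duodenum did not differ at the threshold (-0.42, adjusted p = 0.0389), though they did in D2 (-1.08). Vil1, Lct, Alpi and Cdh17 were at most 21.1 in B6 liver. The part of enterocyte RNA in these results was not tested. The count was 0 when B6 WT 2 was left out and with the run as a block. Leaving out B6 WT 1, B6 WT 3, B6 KO 3, D2 KO 3 or any of the D2 WT livers gave 1, and leaving out D2 KO 1 or D2 KO 2, which enter the fit's estimate of the spread, gave 4.

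Several B6 differences did not pass. The Cyp2a5 and Cyp2a4 probe set was at 2850, 2240 and 3200 in WT and 4350, 5030 and 7070 in KO (0.97, adjusted p = 0.236), and Cyp2j9, a Cyp2j enzyme also found in brain, at 68.2 to 82.3 in WT and 116 to 144 in KO (0.76, adjusted p = 0.146). Cyp2c70 was at 2050, 2450 and 1890 in WT and 4080, 1950 and 4790 in KO (0.67, adjusted p = 0.39), and B6 KO 2 lay within the WT range. The study assigned Cyp2c70 a second probe set, which is not among the 43 here, and reported it higher in KO liver of both strains. Cyp2b10, on the probe set that fell in D2, was at 115, 49.7 and 92.3 in WT and 25, 559 and 869 in KO. Here B6 KO 1, the only KO liver hybridized with the WT livers, was below all of them and the other KO livers were above.

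The difference between the strains' responses was tested directly, as the D2 effect minus the B6 effect. In liver 3 of 38 passed (7.89%, against 0.214% of all probe sets). The Cyp2a5 and Cyp2a4 probe set had a difference of -2.53 ± 0.45 (adjusted p = 0.0434), from -1.56 in D2 and 0.97 in B6, and Cyp2c37 one of -1.2 ± 0.23 (adjusted p = 0.0803), from -0.94 and 0.26. Cyp2c23 had one of 1.07 ± 0.2 (adjusted p = 0.0642), its B6 signals being 3450, 3420 and 2830 in WT and 3610, 3190 and 3180 in KO liver. For Cyp2b9 (-6.73 ± 1.51, adjusted p = 0.13), Cyp2c39 (-3.3 ± 0.72, adjusted p = 0.121) and Cyp2j6 (1.13 ± 0.24, adjusted p = 0.11) the difference missed the threshold. No probe set passed once B6 WT 1 or 2, D2 WT 1 or 2, or D2 KO 3 was left out, 1 passed without D2 KO 2, 6 without B6 KO 1 and 11 without D2 KO 1.

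WT livers of the strains differed in several Cyp2 members: 7 of 38 passed an adjusted p of at most 0.01, 5 higher in D2 and 2 higher in B6 (18.4%, against 4.35% of all probe sets, 1.97% higher in D2 and 2.39% higher in B6). The largest was Cyp2c39, at 23.8, 40.4 and 27.5 in B6 WT liver against 1550, 1450 and 1030 in D2 WT liver (D2 minus B6 5.48 ± 0.51, adjusted p = 4.28e-06, or 4.87 with 16 added to each signal). Cyp2c23 ran the other way, from 3450, 3420 and 2830 in B6 to 204, 192 and 239 in D2 (-3.93 ± 0.14, adjusted p = 1.46e-10), and its rise in D2 KO liver left it far below every B6 liver. Whether the strains differ in sequence under the probes was not examined for any of these members. Cyp2b9 was at 19.1, 11 and 1.18 in B6 and 395, 382 and 76.5 in D2 (5.17 ± 1.06, adjusted p = 0.00595). Its B6 signals lie at background, and with 16 added to each signal the difference was 3.29 (adjusted p = 8.29e-05). In the D2 KO livers it was at 0.63 to 8.29, in the range of the B6 WT livers or below it.

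Cyp2c29 was higher in D2 (7830 to 8960 against 4170 to 4630, 0.92, adjusted p = 0.000107), as were Cyp2c55 (1.57, adjusted p = 0.00459) and Cyp2g1 (1.42, adjusted p = 0.00873). Cyp2r1 was lower in D2, at 46, 33.8 and 50.7 against 120, 102 and 116 (-1.39 ± 0.22, adjusted p = 0.000806). Cyp2c38, at 249, 333 and 318 in B6 and 1530, 1330 and 988 in D2, narrowly missed the threshold (2.08, adjusted p = 0.0106), and Cyp2b10 was higher in D2 on all 3 probe sets by 1.86 to 2.13 without passing. This comparison and that of D2 KO with D2 WT use the same 3 D2 WT livers. Cell type markers differed between the WT strains as well: of 6 sinusoidal and Kupffer cell markers 2 were lower in D2, Lyve1 (-1.89) and Cd5l (-0.93), with summed signals of 1989 to 2500 in B6 and 1266 to 1676 in D2. Of 11 hepatocyte markers Fga was higher (0.71) and Tat lower (-0.93) in D2, and of 9 acinar markers Cela1 was higher (0.96). Their part in the Cyp2 differences was not tested. Within the run that held D2 WT 1 and all B6 WT livers, the 7 kept their direction (Cyp2c39 5.71, Cyp2c23 -3.98, Cyp2b9 5.98). The WT livers of the strains did not overlap on any of the 7, so this was bound to occur and does not test the run. With the run as a block 3 of the 38 passed, and leaving out B6 WT 2, D2 WT 1 or D2 WT 2 gave 4.

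In duodenum, 1 of 38 probe sets changed with the KO in D2 mice (2.63%, against 0.378% of all probe sets, 0.121% lower). It was Cyp2c29, at 810, 1310 and 1070 in D2 WT and 268, 29.6 and 32.9 in D2 KO duodenum (-4.03 ± 0.71, adjusted p = 0.0617). All D2 KO duodena were on fluidics station 2, as was D2 WT 3, whereas D2 WT 1 and D2 WT 2 were on station 1. Genotype and station were thus largely linked here. D2 KO 2 and D2 KO 3, the arrays with the low acinar sums of 2170 and 2802, were also the ones lowest in Cyp2c29. With both left out, an alternative chosen after their values were seen, the D2 KO group is 1 array that is assumed to vary like the other groups, and its log2 difference was -1.96 (adjusted p = 0.727). None of the 9 acinar markers passed between D2 KO and D2 WT duodenum (median log2 difference -3.12). Of 6 sinusoidal and Kupffer cell markers 1 fell there, Stab2, at 102, 181 and 76.6 in WT and 17.3, 37.7 and 15.5 in KO (-2.38, adjusted p = 0.0816). None of 3 B and plasma cell markers passed, but their summed signal was 6826 to 8066 in D2 WT and D2 KO 1 and was 4498 and 4008 in D2 KO 2 and D2 KO 3. The part of these cells' RNA in the Cyp2c29 result was not tested. No probe set passed once B6 WT 2, D2 WT 1 or 2, or D2 KO 2 or 3 was left out, while 2 passed without D2 WT 3 and 5 without D2 KO 1.

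Cyp2b10 followed the same arrays without passing. Its brightest probe set was at 4760, 4290 and 4820 in D2 WT duodenum and 3490, 1210 and 1330 in D2 KO duodenum (-1.38 ± 0.37, adjusted p = 0.191), and the others had differences of -1.61 and -1.64. Cyp2j6 was at 234, 232 and 488 in D2 WT and 462, 553 and 515 in D2 KO (0.77, adjusted p = 0.235). The groups overlapped through D2 WT 3, the only D2 WT duodenum on the fluidics station of the D2 KO arrays. Cyp2c65 was at 5390 to 6140 in D2 WT and 4430 to 5120 in D2 KO (-0.27, adjusted p = 0.336).

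No Cyp2 probe set changed with the KO in B6 duodenum by limma (background 0.0107%), and 1 had an unadjusted p under 0.05, as 5.66% of all probe sets did. This was Cyp2c55, at 2730, 1990 and 2350 in WT and 3240, 3570 and 4020 in KO (0.62 ± 0.2, adjusted p = 0.873), with all KO arrays above all WT arrays. Cyp2b10 was at 3630, 3800 and 4040 in B6 WT and 1920, 4410 and 5030 in B6 KO, and Cyp2c29 at 2960, 2810 and 3020 and at 958, 3260 and 4740. In both genes B6 KO 1, which alone shared a run with the WT arrays, was below the WT range and the other KO arrays above it. Nor did any probe set pass the test of the strain difference in response in duodenum (background 0.0143%), with 8 of 38 at an unadjusted p under 0.05 against 10.4% of all probe sets.

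**Figure D4:**
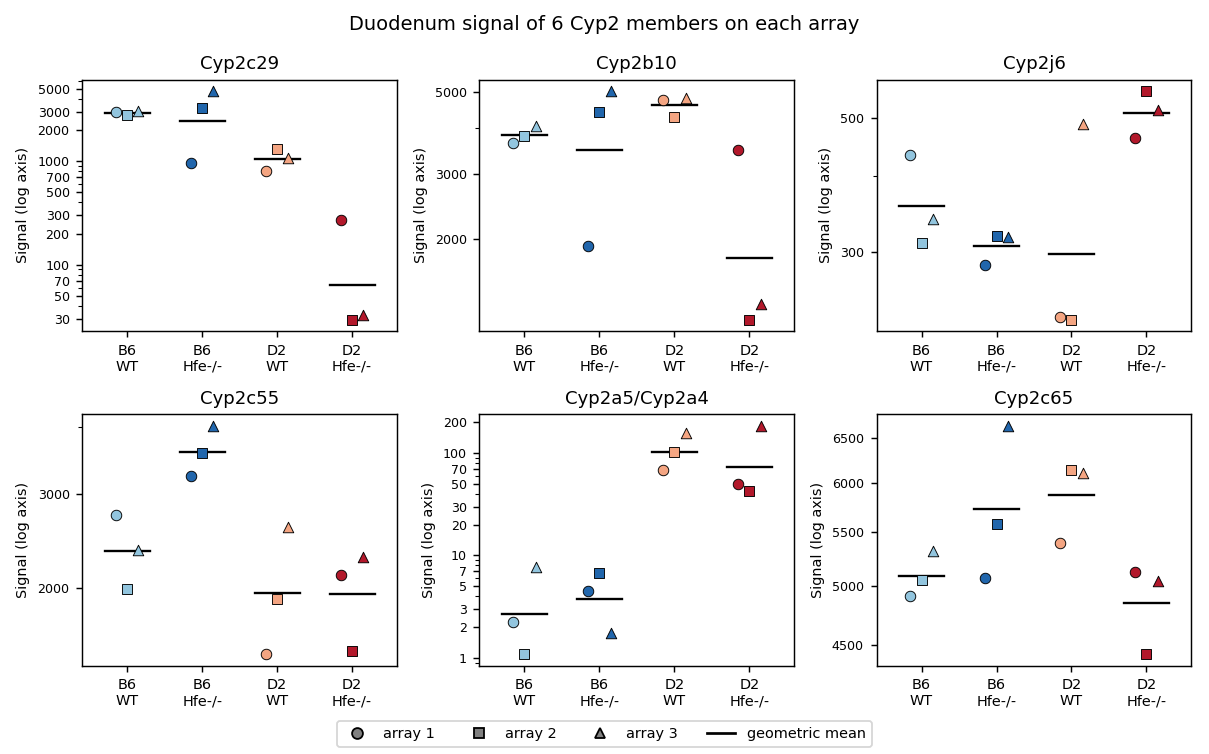
MAS5 signal (log axis, a range of its own in each panel) of 6 Cyp2 members on every duodenum array; symbols give the array number in its group and horizontal lines the geometric mean of 3 arrays. Cyp2c29 drops to 29.6 and 32.9 on D2 KO 2 and D2 KO 3, and Cyp2a5/Cyp2a4 is at 67.7 to 156 in D2 WT against 1.09 to 7.78 in B6 WT.

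Between the WT strains 1 of 38 probe sets differed in duodenum (2.63%, against 3.37% of all probe sets, 1.28% higher in D2, so that the share was near the background). The Cyp2a5 and Cyp2a4 probe set was at 2.22, 1.09 and 7.78 in B6 and 67.7, 101 and 156 in D2 (5.26 ± 0.74, adjusted p = 0.000609). With 16 added to each signal the difference was 2.61. Of 11 hepatocyte markers 1 was also higher in D2 WT duodenum, Serpina1b (3.96 to 9.44 in B6, 39.8 to 50.2 in D2, 2.84, adjusted p = 0.000569). The markers' summed signals were 5770 to 5812 in B6 and 6715 to 7625 in D2. Most of these sums came from Cps1 (2967 to 3421 in B6, 3404 to 3822 in D2) and Apoc3 (1509 to 2500 and 2175 to 3783). Alb was at 5.57 to 15.4 in B6 and 4.75 to 21.3 in D2. Of 6 sinusoidal and Kupffer cell markers 1 was higher in D2 as well, Stab2 (2.89, adjusted p = 0.0016). The part of these cells' RNA was not tested. The D2 KO duodena, at 49.5, 42.9 and 184, lay below or above the D2 WT range but above every B6 duodenum. The B6 KO duodena, at 1.77 to 6.76, were within the range of the B6 WT ones. The WT duodena of the strains shared no hybridization run, so strain and run were linked here. With the run as a block the difference was 5.64 and no longer passed (adjusted p = 0.0994). That fit separates the runs only through the B6 KO duodena, the only group present in both.

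Genes that serve or control the family were described from lists of their own. Of 7 listed genes of P450 partners and heme supply 6 were tested, and P450 oxidoreductase was not among them. Of these 6, 2 rose and 1 fell in D2 KO liver, where 1.35% of all probe sets rose and 1.4% fell. The rises were of Cyb5b, a cytochrome b5 (0.58, adjusted p = 0.017), and Cyb5r3, a cytochrome b5 reductase (0.47, adjusted p = 0.0732). Cyb5a, the other cytochrome b5 of the list, did not change (-0.03, adjusted p = 0.952). The fall was of Alas1, the first enzyme of heme synthesis. Alas1 was at 4017, 3897 and 4436 in D2 WT and 3387, 248 and 481 in D2 KO liver (-2.48 ± 0.6, adjusted p = 0.0574), with D2 KO 1 near the WT level as it was intermediate on Cyp2c38 and Cyp2c39. In B6 KO liver Cyb5b rose (0.73, adjusted p = 0.00632) and no other tested gene of that list passed.

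Of 19 tested receptors and transcription factors that control Cyp2 genes, 1 fell in D2 KO liver, Tef (-0.59, adjusted p = 0.0577), a clock-driven activator of Cyp2 genes, and none changed in B6 KO liver. Of all probe sets 1.4% fell in D2 KO liver and 1.02% changed in B6 KO liver. CAR (Nr1i3) was at 774, 747 and 578 in D2 WT and 438, 482 and 565 in D2 KO liver (-0.5 ± 0.16, adjusted p = 0.163), without overlap but short of the threshold. PXR (Nr1i2) was at 159, 143 and 155 against 159, 132 and 151 (-0.05, adjusted p = 0.921). Dbp, a relative of Tef, fell in D2 KO duodenum, from 245, 203 and 431 to 73.5, 73 and 99.4 (-1.78, adjusted p = 0.0144), where 0.121% of all probe sets fell. It was lower in KO liver without passing (-1.87 in D2, adjusted p = 0.131, and -1.67 in B6).

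Of 12 tested CAR and PXR targets outside the family, 4 fell and none rose in D2 KO liver, where 1.4% of all probe sets fell and 1.35% rose. Slco1a4, a bile salt and drug carrier, was at 603, 590 and 556 in WT and 169, 189 and 173 in KO (-1.72 ± 0.22, adjusted p = 0.00126). The others were Gadd45b (-1.72, adjusted p = 0.0554), Cyp3a13 (-0.55, adjusted p = 0.0512) and Abcc3 (-0.45, adjusted p = 0.0497). Cyp3a11, the most abundant PXR target of mouse liver, was at 11795 to 12034 in D2 WT and 11319 to 13310 in D2 KO (0.05, adjusted p = 0.915). In B6 KO liver 1 of the 12 rose, Gstm1 (0.54, adjusted p = 0.017), against 0.542% of all probe sets, and none fell. Among 7 tested Cyp2 genes known to be induced through CAR, each taken by its brightest probe set, 3 fell in D2 KO liver (Cyp2b9, Cyp2c37 and Cyp2c54). In B6 KO liver 2 of them rose (Cyp2c29 and Cyp2c55). Of all probe sets 1.4% fell in D2 and 0.542% rose in B6 KO liver. These are calls already given above, grouped anew. Without a call in D2 KO liver, Cyp2b10 (-3.27) and Cyp2c50 (-0.43) were lower, Cyp2c29 was level (-0.04) and Cyp2c55 was higher.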

How the data were processed

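RNA of liver and duodenum was hybridized to 24 Affymetrix Mouse Genome 430 2.0 arrays. The deposited intensity values are the authors' MAS5 signals on a linear scale (version not given in the sources used here), with a mean of 100 on each array after the top and bottom 2% were trimmed. No detection calls or read depths come with them, and the number of arrays, 3 a group, limits the precision. The median signal was 15.7 to 20.9 in liver and 20 to 23.4 in duodenum. Log2 of the authors' signal was taken with no pseudocount. Leaving out 64 AFFX controls, probe sets that reached 20 on at least 3 arrays of liver or of duodenum were kept (28061 of 45101). In R 4.3.3, limma 3.58.1 (lmFit, then eBayes allowing the variance to follow mean signal) was applied to the 4 groups of each tissue, and to the WT arrays for the tissue comparison, with Benjamini-Hochberg adjustment over all probe sets kept. The thresholds were 0.1 for the KO and its strain difference and 0.01 for strain and tissue. Log2 differences carry the standard error of the moderated fit. An exact permutation test of 3 against 3 arrays cannot go below 0.1. Members with full values were the called ones with a mean signal of at least 100, up to 10 per KO comparison, the brightest 5 per tissue, and those named in the study. A gene with several probe sets is represented by the brightest, and the others are given where they disagree. Alternatives were a pseudocount of 16, quantile normalization, other filters, no trend, the replicate number or the run as a block, only the arrays compared, and each array left out. Tested on simulated data in liver of D2 mice over 28061 probe sets, the fit found 26, 86 and 151 of 200 changes of 1.5-, 2- and 4-fold. There the group means of unchanged probe sets had been set equal, so false calls could not arise and their rate was not measured. The numbers found leave out the sampling variation of group means. Gene symbols came from the platform annotation, in which 34958 probe sets have 1 symbol, 932 several and 9211 none. Differences between the strains in probe sequence were not examined here. The Cyp2 members and the lists were chosen with earlier results of these data known.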

Additional observations from a re-analysis of the deposited data

Results flagged for a closer look

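For 3 Cyp2 probe sets the liver response to Hfe disruption differed between the strains in a direct test (limma, D2 effect minus B6 effect, adjusted p of at most 0.1). The Cyp2a5 and Cyp2a4 probe set had a difference of -2.53 (adjusted p = 0.0434), with a log2 difference of -1.56 in D2 and 0.97 in B6, and all 3 KO livers lay below the WT livers in D2 and above them in B6. Cyp2c37 had a difference of -1.2 (adjusted p = 0.0803), with -0.94 in D2 and 0.26 in B6. Cyp2c23 had a difference of 1.07 (adjusted p = 0.0642), from signals that were 15.3-fold lower in D2 than in B6 WT liver. Strain differences in sequence under its probes were not examined. With the run as a block none of the 3 passed: the differences were then -2.39 (adjusted p = 0.483) for Cyp2a5 and Cyp2a4, -0.79 (adjusted p = 0.475) for Cyp2c37 and 0.8 (adjusted p = 0.662) for Cyp2c23.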

How the results depend on the processing

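Every Cyp2 call named above kept its direction under the alternatives that could be fitted. For the KO in D2 liver, 16 probe sets passed, against 2 without the mean-variance trend, 0 with the run as a block, 1 with run and fluidics station as blocks (added after seeing the data) and 6 to 19 with single arrays left out. In B6 liver the count of 2 became 0 without the trend and with the run, or run and station, as blocks, 1 at an adjusted p of 0.05, 1 with the replicate number as a block, and 0 to 4 with single arrays left out. For the strain difference in liver response the count of 3 became 6 with the pseudocount, 6 without a filter, 1 at 0.05, 0 without the trend or with the run, or run and station, as blocks, and 0 to 11 with single arrays left out. The 7 WT strain calls in liver became 3 with the run and 1 with run and station as blocks, and 4 to 8 with single arrays left out. In duodenum the D2 KO count of 1 became 0 without the trend, with only the arrays compared, at 0.05, with the replicate block, with run and station as blocks, and without D2 KO 2 and D2 KO 3 (added after seeing the data), and 0 to 5 with single arrays left out. The WT strain count of 1 became 2 with the pseudocount, with only the arrays compared and at 0.05, and 0 with the run, or run and station, as blocks. It was 1 to 1 with single arrays left out. The B6 KO count in duodenum was 0 to 0, that of its strain difference 0 to 4, and the tissue counts 30 to 32 in B6 and 32 to 34 in D2. Of all 95 called differences, 25 were lost without the trend and 5 with quantile normalization. The run block could be fitted for 61, of which 33 were lost, and the run and station blocks for 30, of which 29 were lost. Most of the 95 are large differences between the tissues. Of the 30 KO and strain calls within a tissue, 22 were lost without the trend, 3 with quantile normalization and 26 with the run block. Replicate numbers did not pair the arrays (correlation of same-numbered deviations -0.16 to 0.12). With the replicate block 6 of the 95 were lost, all of them among the 30 within a tissue. With the run as a block 24 of the 31 tissue differences in B6 passed, and in D2 mice the tissue difference could not be fitted. With median signals of 15.7 to 23.4 an array, differences of members below about 20 are poorly measured.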
